A study of Mus musculus with 3 samples.

Results

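CT26.WT mouse colon carcinoma cells exposed to the recombinant mouse protein S100a9 were compared with the same cells exposed to recombinant mouse S100a8. CT26.WT is an established tumour line that grows as an undifferentiated carcinoma. Both cultures were first kept for 12 h in medium without serum, and each then received its protein at 4 µg/ml for 24 h. The remaining culture, the control, received bovine serum albumin according to its title and saline according to its description; no exposure time was labelled for it. Total RNA of each culture was measured on 1 Affymetrix whole-genome mouse array, so 2 of the 3 arrays of the series enter the comparison and each group is a single culture. The control is printed beside named genes for reference, in the order S100a8, S100a9, control, and entered no ratio. All values are deposited linear MAS5 signals. A gene was taken from its probe set with the highest mean signal, and it was compared where that mean exceeded a floor of 76.1, the median of all signals of the S100a8 and S100a9 arrays. Of 18193 named genes, 11230 were compared. With 1 array a group there was no replicate check, no standard error and no test. Differences are given as the log2 ratio of the S100a9 signal over the S100a8 signal, positive where S100a9 was higher, and 1.5-fold is used as a descriptive size.

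S100a8 and S100a9 belong to the S100 family of calcium-binding proteins. Neutrophils and monocytes carry them in large amounts, mostly as a heterodimer, and release them in inflamed tissue and tumours. Outside the cell they act as danger signals, and Tlr4 with its partner Ly96 and the receptor Ager are among the receptors described for them. Tlr4 signals through Myd88 to NF-kB, which drives chemokine and cytokine genes, and through Ticam1 to the interferon regulatory factors. Type I interferon in turn activates transcription factors, Stat2 and Irf9 among them, that bind interferon-stimulated response elements in the promoters of antiviral genes.

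Most compared genes of the interferon lists had higher signals in S100a9-treated than in S100a8-treated cells. The lists were chosen with earlier results of these data known, and Oas1e, the lowest of all compared genes, is not a member. Of the 69 compared genes of the interferon lists, 59 had a higher signal with S100a9, against 54.3% of all compared genes, and 10 a lower one, against 45.7%. The list's median log2 ratio was 0.19 against 0.02 over all compared genes. NF-kB pathway genes (median 0.18) and enzymes of cholesterol synthesis (median 0.19) were also mostly higher with S100a9. In all 3 themes the control had the highest median signal. The medians were 426, 544 and 604 for interferon, 539, 604 and 996 for NF-kB, and 1545, 1869 and 2005 for cholesterol synthesis. The sizes were modest. In all, 11 genes were at least 1.5-fold higher (0.0980%) and 111 at least 1.5-fold lower (0.988%) with S100a9, and at 2-fold these counts were 0 (0.00%) and 2 (0.0178%). Genes entered on their mean over both arrays, so a high signal on 1 array could carry them in. Of the 111 lower genes, 14 had S100a9 at the floor, and 0 of the 11 higher ones had S100a8 there. Over all 11230 compared genes, 357 had exactly 1 array at the floor. When ratios were centred by signal brightness, the 1.5-fold counts were 30 higher and 68 lower.

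The promoters of 6 genes with higher signals in S100a9-treated cells are shown because they carry the core of the interferon-stimulated response element. The element was searched as 2 copies of GAAA with any 2 bases between them, on both strands of the 250 bases before the transcription start, in RefSeq promoters of build GRCm38.p6, and capitals mark each match. Ifi207, Ifit1 and Ddx60 were among the 12 highest ratios, and Ifit3, Igtp and Stat2 are members of the interferon lists chosen after their values were seen. Each sequence runs 5′ to 3′ on the strand of the gene and ends at the base before the start.
Ifit1 (chr19:34640639-34640888, forward strand): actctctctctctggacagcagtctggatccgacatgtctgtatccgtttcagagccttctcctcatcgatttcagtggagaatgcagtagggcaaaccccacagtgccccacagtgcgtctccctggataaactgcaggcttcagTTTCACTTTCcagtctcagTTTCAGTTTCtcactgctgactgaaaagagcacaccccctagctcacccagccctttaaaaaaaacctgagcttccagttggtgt
Ifit3 (chr19:34583279-34583528, forward strand): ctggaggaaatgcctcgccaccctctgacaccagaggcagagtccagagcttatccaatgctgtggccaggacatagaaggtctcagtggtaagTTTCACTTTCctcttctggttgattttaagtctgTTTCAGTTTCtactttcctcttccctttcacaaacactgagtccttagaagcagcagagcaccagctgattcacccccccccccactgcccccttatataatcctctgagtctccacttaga
Ddx60 (chr8:61927837-61928086, forward strand): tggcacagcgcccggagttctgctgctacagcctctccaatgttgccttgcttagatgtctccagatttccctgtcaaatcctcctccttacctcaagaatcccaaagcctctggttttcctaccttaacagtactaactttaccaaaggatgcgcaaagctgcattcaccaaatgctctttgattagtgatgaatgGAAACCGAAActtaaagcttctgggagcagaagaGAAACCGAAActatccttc
Igtp (chr11:58199306-58199555, forward strand): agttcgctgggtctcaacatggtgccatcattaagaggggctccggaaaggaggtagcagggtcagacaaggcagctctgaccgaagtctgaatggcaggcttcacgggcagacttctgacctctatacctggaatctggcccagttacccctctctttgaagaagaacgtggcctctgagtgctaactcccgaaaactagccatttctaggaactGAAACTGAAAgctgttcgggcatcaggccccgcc
Ifi207 (chr1:173741810-173742059, reverse strand): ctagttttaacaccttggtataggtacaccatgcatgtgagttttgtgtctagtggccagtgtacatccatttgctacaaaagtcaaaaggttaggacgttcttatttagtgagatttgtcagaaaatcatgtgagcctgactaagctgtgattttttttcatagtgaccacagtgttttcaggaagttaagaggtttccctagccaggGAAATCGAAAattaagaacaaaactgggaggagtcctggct
Stat2 (chr10:128270248-128270497, forward strand): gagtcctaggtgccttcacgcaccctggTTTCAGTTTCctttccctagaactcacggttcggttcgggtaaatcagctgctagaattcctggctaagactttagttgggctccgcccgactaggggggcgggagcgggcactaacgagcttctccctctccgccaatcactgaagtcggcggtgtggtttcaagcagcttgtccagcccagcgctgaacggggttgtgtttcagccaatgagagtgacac

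In Ifit1 the 2 matches began 104 and 85 bases before the start, in Ifit3 156 and 122, and in Ddx60 53 and 19. Igtp had 1 match at 34 bases, Ifi207 1 at 41 and Stat2 1 at 222. Over the 57 compared interferon-list genes with a promoter entry, 18 (31.6%) held the element, as did 289 of 9132 compared genes (3.16%). The lists hold genes known for induction by interferon, so this share describes the lists and not the comparison. Within the lists, the 18 genes with the element had a median log2 ratio of 0.33, and 17 of them were above 0. The 39 without it had a median of 0.12, with 33 above 0. Over all compared genes, those with the element had a median of 0.03 and those without it 0.02. The element was found in 2 of 8 genes at least 1.5-fold higher with S100a9 (25%) and in 2 of 87 at least 1.5-fold lower (2.30%). No promoter entry was used for Parp14, Usp18, Dhx58, Zbp1 and Ccl2.

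Ratios varied with signal brightness, which bears on every count. The dimmest 25% of compared genes, with geometric mean signals of 76.1 to 178, had a median log2 ratio of −0.13 (SD over genes 0.25). The 3 brighter bands of equal size had medians of 0.04, 0.04 and 0.02, and the SD of the brightest was 0.11. Of the 111 genes at least 1.5-fold lower with S100a9, 85 lay in the dimmest band, and so did 6 of the 11 higher ones. Of 80 probe sets for olfactory and vomeronasal receptors, chosen as likely silent in these cells, 8 exceeded the floor in S100a8-treated cells, 6 after S100a9 and 5 in control cells. The poly-A spike-ins, added to the RNA before labelling, had a median log2 ratio of 0.19 (SD over 24 probe sets 0.16), and the hybridization spike-ins −0.03 (SD over 18 probe sets 0.08). The part of these shifts in the gene results was not tested, except where values within a brightness band are given.

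**Figure D1:**
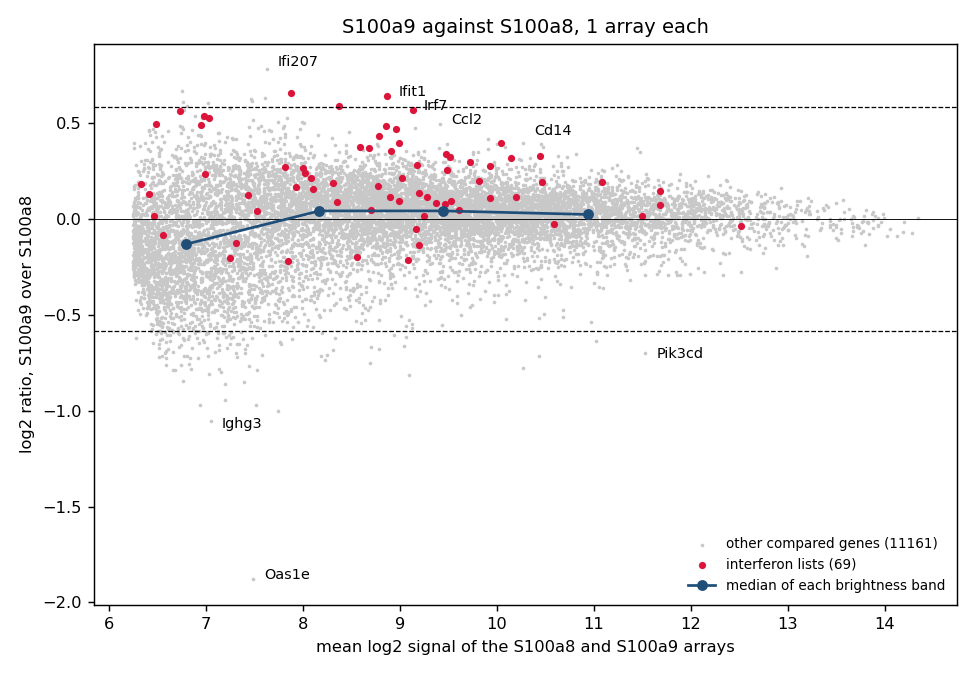
Log2 ratio of S100a9 over S100a8 (vertical axis) against the mean log2 signal of both arrays (horizontal axis) for 11230 compared genes. Dashed lines mark 1.5-fold, the blue line joins the medians of the 4 brightness bands (−0.13, 0.04, 0.04 and 0.02), and the red interferon-list genes lie mostly above 0 at every brightness.

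Among genes above the floor on both arrays, the highest ratio was that of Ifi207, a member of the interferon-inducible HIN-200 family of DNA-binding proteins. Its signals were 151, 260 and 208, a 1.72-fold difference between S100a9 and S100a8. Fos, an AP-1 subunit and immediate-early gene, had 85.2, 136 and 193 (1.59-fold). Parp14, an interferon-induced ADP-ribosyltransferase, had 187, 295 and 507 (1.58-fold). In Fos and Parp14 the control lay above both protein-treated cultures, and in Ifi207 it lay between them. Ifit1, which binds viral RNA lacking a host-type cap, had 375, 586 and 892 (1.56-fold). Dcn, the collagen-binding proteoglycan decorin, had 157, 243 and 296 (1.55-fold). The stromelysins, metalloproteinases with a broad range of matrix substrates, followed. Mmp3 had 144, 220.5 and 356 (1.53-fold), and Mmp10 had 105, 160 and 275 (1.52-fold). Oasl2, a 2′-5′-oligoadenylate synthetase-like antiviral protein, had 269, 406 and 539 (1.51-fold). For each of these genes from Ifit1 on, the order was S100a8 lowest, S100a9 between and control highest.

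Pcdhb22, a clustered protocadherin of cell adhesion, had signals of 87.6, 134 and 131 (1.53-fold), so that S100a9 and control lay together above S100a8. Tsacc, a co-chaperone of a testis kinase, had 91.3, 138 and 130 (1.51-fold), the same order. The eleventh gene past 1.5-fold was a clone-named gene, C130071C03Rik (142, 220 and 180), named after its values were seen. Just inside the size were Oasl2 and Tsacc, both at 1.51-fold, and just outside were Ddx60 and Tmem126b. Ddx60, a helicase that assists cytosolic RNA sensing, had 124, 186 and 259 (log2 ratio 0.58), and a further probe set of Ddx60 gave 0.46. Tmem126b, a complex I assembly factor, had 89.9, 133 and 136 (1.48-fold). Among genes above the floor with S100a9 and at it with S100a8, whose folds are lower bounds, 3 had the highest ratios. Gbp6, an interferon-induced GTPase, had 75.2, 107 and 156 (at least 1.41-fold higher). Iglon5, a neural cell adhesion protein, had 73.1, 105 and 62.1 (at least 1.39-fold), and Akr1c14, a hydroxysteroid dehydrogenase, had 69.1, 105 and 88.7 (at least 1.38-fold).

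**Figure D2:**
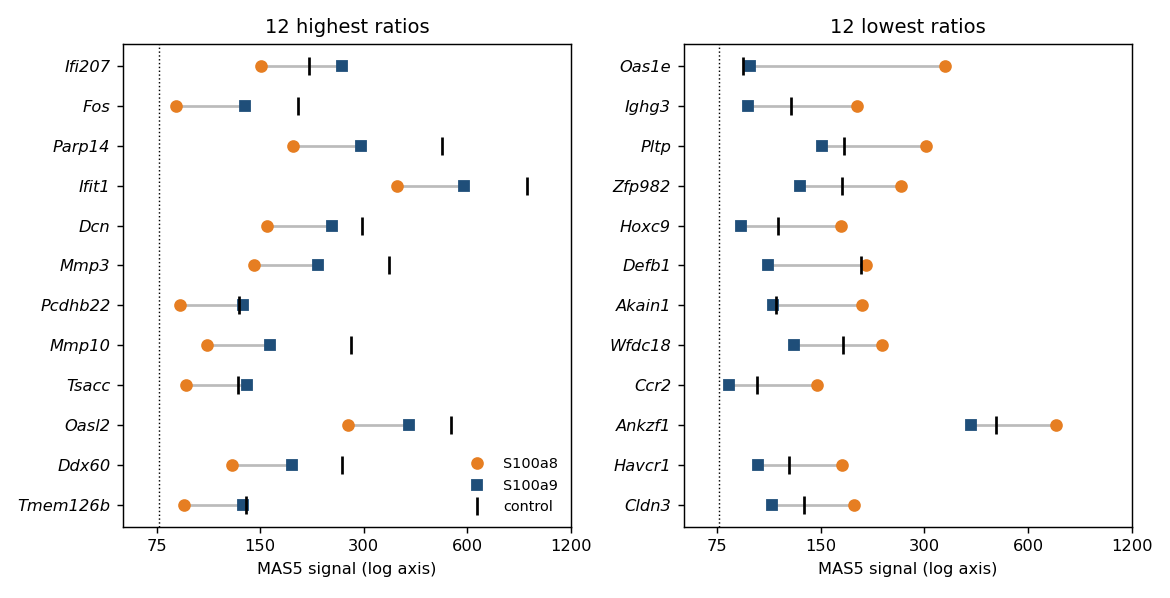
MAS5 signals on a log axis of the 12 genes with the highest (left) and the 12 with the lowest (right) ratio of S100a9 over S100a8, with S100a8 as circles, S100a9 as squares, the control as a tick and the floor of 76.1 as a dotted line. Signals of the highest genes run from 85.2 (Fos, S100a8) to 892 (Ifit1, control), and Oas1e has the widest gap, 343 against 93.3.

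Of the receptors described for these proteins, the genes of the Tlr4 complex were above the floor on all arrays. Tlr4 had signals of 365, 404 and 380.5, a log2 ratio of 0.14. Its further probe set gave 0.34, and the mean of its probe sets 0.06. Ly96, needed by Tlr4 at the cell surface, had 248, 280 and 456 (0.18), and Cd14, the co-receptor that hands ligand to Tlr4 and Ly96, had 1075, 1418 and 1413 (0.40, or 1.32-fold). All 3 were higher with S100a9, with a median of 0.18. Bsg, basigin, had 1994, 2228 and 2198 (0.16), and Nptn, neuroplastin, was at −0.09 with a further probe set at 0.05. Of 11 adaptors and kinases downstream, 6 were above 0 and the median was 0.01. Traf6, the ubiquitin ligase of this pathway, had the lowest ratio of them at −0.28. Its further probe set gave 0.09, and the mean of its probe sets −0.06. Ager (63.3, 61.1 and 72.0) and the scavenger receptor gene Cd36 (59.7, 38.9 and 43.4) lay below the floor on each array. So did the cells' own S100a8 gene (14.7, 13.5 and 13.5) and S100a9 gene (38.5, 24.2 and 37.1). Of 8 compared S100 family genes 5 were above 0, with a median of 0.03, between S100a3 at 0.23 and S100a6 at −0.11.

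In the interferon pathway, the receptors and signal transducers had 14 of 16 members above 0, with a median log2 ratio of 0.10. The 2 highest ratios belonged to the transcription factors of the pathway. Irf7, the factor that amplifies interferon gene induction, had signals of 462, 684 and 649 (0.57). Stat2, which acts with Irf9 at the response element, had 104, 146 and 186 (0.49), falling to 0.28 when the mean of all its probe sets was used. The lowest members were the kinase gene Jak2 (613, 559 and 646; −0.13) and the receptor chain gene Ifnar2 (586, 566 and 570.5; −0.05). With the mean of their probe sets both turned positive, Jak2 to 0.06 and Ifnar2 to 0.08. The signal of Irf7 with S100a9 lay just above that of the control, and that of Stat2 between S100a8 and control.

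All 10 compared nucleic acid sensor genes were above 0, with a median of 0.21. Dhx58, a regulator of the RIG-I family, had 87.4, 129 and 116 (0.56). Zbp1, a sensor of Z-form nucleic acid, had 105, 152 and 152 (0.54), or 0.27 with the mean of its probe sets. In both genes the S100a9 and control signals lay closer to each other than to S100a8. The smallest ratios were those of Cgas, the cytosolic DNA sensor (0.11), and Mavs, the mitochondrial adaptor of RNA sensing (0.12). The further probe set of Mavs gave −0.39, and with the mean of all probe sets Mavs was at −0.14, so that 8 of 9 compared sensors were above 0.

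Antiviral effectors were the largest list. Of 36 listed genes 30 were compared, 22 were above 0 and 8 below, and the median was 0.19. Ifit1 and Oasl2 passed 1.5-fold and none of the 30 was 1.5-fold lower, where 0.0980% and 0.988% of all compared genes were higher and lower. Oas1e, the lowest of all compared genes, is not a member of the list and was not counted here. Of the 69 interferon genes, 3 (with Parp14) were among the 11 genes at least 1.5-fold higher (0.0980% of all compared genes). Usp18, which removes Isg15 and restrains interferon receptor signalling, had 423, 587 and 827 (0.47), and it was named after its value was seen. The lowest members were Oas2, a 2′-5′-oligoadenylate synthetase (249, 214 and 279; −0.22), and Adar, an RNA-editing deaminase (585, 504 and 585; −0.21). Adar turned to 0.05 with the mean of its probe sets, where 23 of 29 compared effectors were above 0.

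Of the PARP genes and their partners, all 6 were above 0, with a median of 0.21. After Parp14, the next was Parp9, a partner of Dtx3l at sites of DNA damage and in interferon signalling (657, 822 and 840; 0.32). The smallest were Parp12 (0.08) and Zc3hav1, the zinc finger antiviral protein (0.15, with a further probe set at −0.07). Parp14 was at 0.33 with the mean of its probe sets. The interferon-induced GTPases, which attack the vacuoles of intracellular pathogens, had the highest median of the interferon lists, 0.38, and all 7 compared members were above 0. Igtp had 392, 548 and 704 (0.48). Irgm1 (482.5, 560 and 716; 0.22) and Irgm2 (204, 247 and 324; 0.27) had the lowest ratios of the GTPases. S100a9 lay between S100a8 and control in Igtp, Irgm1 and Irgm2.

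At a smaller size, 1.3-fold, chosen after the values were seen, 15 of the 69 interferon genes were higher and 0 were lower with S100a9. Over all compared genes 0.962% were higher and 5.55% lower at that size. Within brightness bands the interferon genes kept a positive median. In the dimmest band 10 of 13 were above 0 (median 0.18), where 32.5% of all genes were. In the brighter bands 16 of 18 (0.20), 25 of 28 (0.21) and 8 of 10 (0.13) were above 0. Of all genes in those bands, 60.3%, 64.3% and 60.3% were above 0. Further probe sets, which share the arrays and the RNA and are no replicates, were above 0 for 18 of the 27 interferon genes that had one, with a median of 0.11. The list's median ran from 0.13 with the mean of all probe sets to 0.19 over the 11 alternative settings. The poly-A spike-ins had a median of the same size (0.19), and their part in the list's median was not tested.

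The MHC class I pathway, which loads peptides for T cell recognition and is interferon-responsive, had 14 of 16 genes above 0 but a median of 0.07, and none at 1.5-fold. The peptide transporter genes led. Tap1 had 195, 242 and 262 (0.32), and Tap2 had 356, 426 and 474.5 (0.26). The immunoproteasome subunit gene Psmb8 (317, 276.5 and 318; −0.20) and the chaperone gene Canx (2999, 2703 and 2813; −0.15) lay below 0, and a further probe set of Canx gave 0.00. In Tap1 and Tap2 the S100a9 signal lay between S100a8 and control.

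Across the NF-kB lists, 29 of 37 compared genes were above 0 with a median of 0.18, and none reached 1.5-fold. At 1.3-fold 6 were higher and 1 lower, where 0.962% and 5.55% of all compared genes were. Of the subunits, all 4 compared were above 0. Rel, the c-Rel subunit, had 98.0, 143 and 167 (0.54), Relb had 500.1, 598 and 1035 (0.26), and Nfkb2 had 715, 811 and 1227 (0.18). Inhibitors and feedback regulators had 12 of 14 above 0 and a median of 0.13. Birc3, a ubiquitin ligase of TNF receptor signalling, had 184, 235 and 410 (0.35), but its further probe set gave −0.41 and the mean of its probe sets −0.03. Tnip1, which binds A20, had 629, 775 and 939 (0.30). Nfkbiz, an atypical inhibitor that also acts as a coactivator, was lowest (2297, 2037 and 2652; −0.17), and turned to 0.10 with the mean of its probe sets. In Relb and Nfkb2 the difference between the 2 proteins was smaller than that of either from the control.

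Of 8 compared chemokine genes 7 were above 0, with a median of 0.20. Ccl2, which draws monocytes through Ccr2, had 576, 813 and 2227 (1.41-fold higher with S100a9). Cxcl3, a neutrophil attractant, had 80.7, 109 and 271 (0.43). Both signals of these genes in protein-treated cells lay far under the control. Cxcl10, an interferon-responsive T cell attractant, had 530, 604 and 1715 (0.19). Cxcl5, also a neutrophil attractant, was the 1 chemokine gene below 0 (539, 473 and 996; −0.19). Cxcl1 was next lowest (5104, 5744 and 9268; 0.17). It was the 1 compared chemokine gene with a further probe set, which gave −0.10. The cytokine and enzyme genes had no common direction, with 6 of 11 above 0 and a median of 0.02. Saa3, an acute-phase protein (190, 275 and 306; 0.53), and Acod1, the enzyme that makes itaconate (106, 143 and 293; 0.44), were higher. Il23a, the p19 subunit of interleukin-23, was at −0.44 (156, 115 and 137), and Ptgs2, inducible cyclooxygenase, at −0.15, or 0.03 with the mean of its probe sets. The NF-kB median was 0.08 when dim genes were kept.

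All 17 compared enzymes of cholesterol synthesis were above 0 with S100a9, with a median log2 ratio of 0.19 and none at 1.5-fold. Their range over alternative settings was 0.16 to 0.19. Tm7sf2, a sterol C14 reductase, had 180, 256 and 273 (0.51), and Mvd, mevalonate diphosphate decarboxylase, had 627, 824 and 916 (0.39). Sqle, squalene epoxidase, had 3682, 3851 and 3825 (0.06), and Mvk, mevalonate kinase, was at 0.08. With the mean of all probe sets 15 of the 17 were above 0, and Mvk turned to −0.18. At 1.3-fold 2 enzymes were higher and 0 lower, where 0.962% and 5.55% of all compared genes were. None of the enzymes lay in the dimmest band, and the 10 in the brightest had a median of 0.17, where all genes had 0.02. Further probe sets were above 0 for 6 of 10. Regulators of the sterol-sensing SREBP pathway had 11 of 12 above 0 but a median of 0.09. Npc1, which exports cholesterol from lysosomes, was at 0.26, and Abcg1, a cholesterol exporter that is induced by oxysterols, was at −0.39 (1149, 875 and 920). The further probe set of Abcg1 gave 0.08, and the mean of its probe sets −0.16. Genes of fatty acid synthesis had 11 of 14 above 0 (median 0.10), from Fads2, a fatty acid desaturase (0.30), to Acsl4, an arachidonate-preferring ligase (−0.34). With the mean of their probe sets these were at 0.20 and −0.06.

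**Figure D3:**
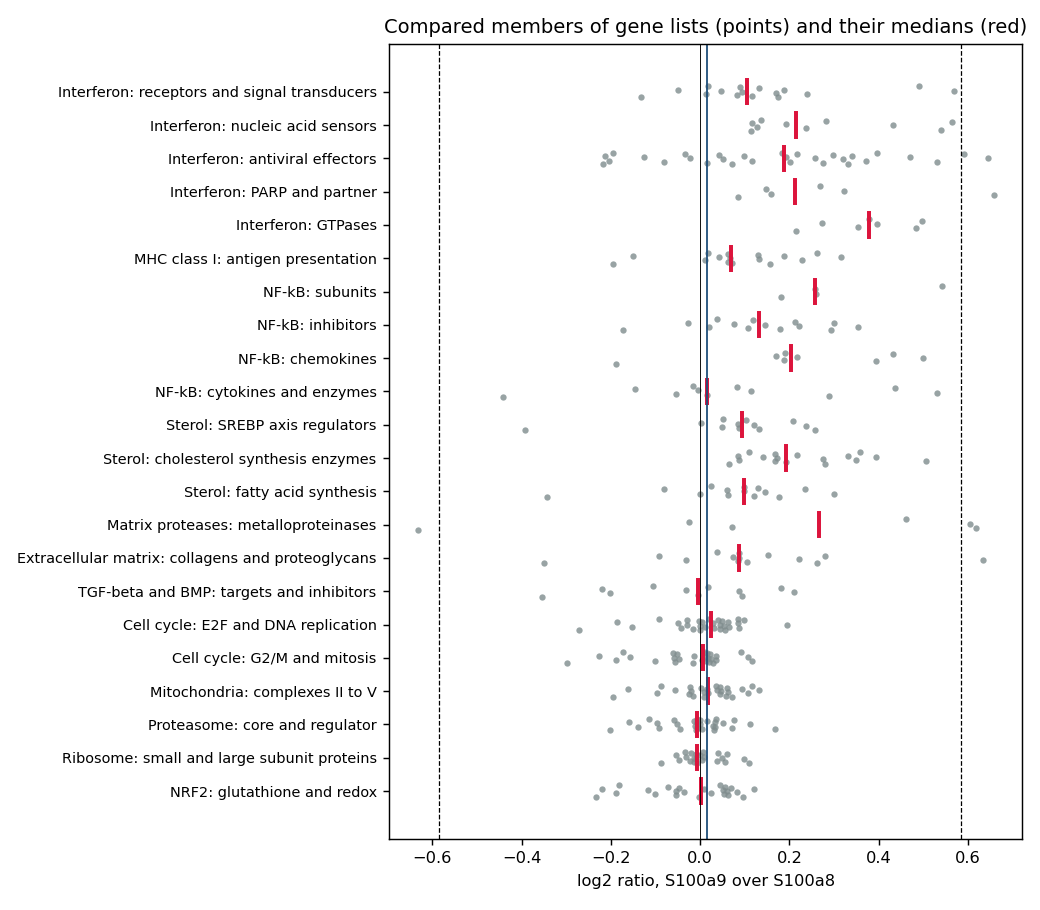
Log2 ratios of S100a9 over S100a8 (horizontal axis) for the compared members of 22 gene lists, 1 grey point per gene, with list medians as red bars, the median of all compared genes (0.02) as a blue line and 1.5-fold as dashed lines. The GTPases (0.38) and the metalloproteinases (0.27) have the rightmost medians, and the cell cycle, mitochondrial, proteasome, ribosome and NRF2 lists have medians between −0.01 and 0.02.

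Matrix-degrading enzymes were split. Of 6 compared metalloproteinase genes, Mmp3 and Mmp10 were at least 1.5-fold higher, and Mmp13, a collagenase that cleaves fibrillar collagen, was below the floor with S100a8 (69.3, 105 and 261; log2 ratio at least 0.46), named after its value was seen. Mmp9, a gelatinase, went the other way (156, 101 and 104; −0.63), and Mmp11 was at −0.02. The list's median of 0.27 ran from 0.00 to 0.46 over the alternative settings. Timp1, a secreted inhibitor of these enzymes, was at 0.04, and Reck, a membrane-anchored one, at 0.38. Collagens and proteoglycans had 11 of 14 above 0 with a median of 0.09. Dcn led (0.63), followed by Col18a1, the source of endostatin (0.28), and Col12a1 was lowest (−0.35). Immediate-early genes had 12 of 16 above 0 and a median of 0.07, with Fos the highest at 0.67. Next came Egr1, a zinc finger factor, at 0.27 (2132, 2567 and 4044), and Klf4 was lowest at −0.25. Further probe sets of the immediate-early list were above 0 for 1 of 7 genes, with a median of −0.09. With the mean of all probe sets 10 of 16 were above 0 and the median was 0.02.

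Genes of the TGF-beta and BMP pathway had no common direction. Of 11 targets and inhibitors, 5 were above 0 and the median was −0.01. The Id genes, which block helix-loop-helix transcription factors, were lower with S100a9 than with S100a8. Id2 had 1550, 1213 and 1033 (−0.35), or −0.08 with the mean of its probe sets, and Id3 had 934, 802 and 412 (−0.22). In both the S100a9 signal lay between S100a8 and control. Skil, a SMAD corepressor, was at 0.21. Of 7 ligand genes 4 were above 0, from Tgfb3 (98.6, 136 and 123; 0.46) to Inhbb, an activin subunit (−0.32, or −0.16 with the mean of its probe sets). Serpinb9b, an intracellular serine protease inhibitor, was 923, 896 and 358, a log2 ratio of −0.04. The 2 proteins thus differed little in a gene for which both lay above the control.

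The lowest ratio of all compared genes was that of Oas1e, by name a 2′-5′-oligoadenylate synthetase paralogue. Its signals were 343, 93.3 and 89.1, so that the S100a8 array stood alone and S100a9 was 3.68-fold lower. It rests on a single probe set, and the Oas1 genes are near copies whose signals cannot be fully told apart. Its log2 ratio of −1.88 ran from −1.90 to −1.17 over the alternative settings. Ighg3, an immunoglobulin heavy chain constant gene, had 191, 92.0 and 123 (2.07-fold lower). Pltp, the phospholipid transfer protein of plasma, had 303, 151 and 176 (1.999-fold lower, just under 2-fold), or a log2 ratio of −0.50 with the mean of its probe sets. Zfp982, a zinc finger gene of a repeated family, had 256, 131 and 173 (1.96-fold). Hoxc9, a homeobox gene of trunk patterning, had 172, 87.7 and 112 (1.96-fold). In Ighg3, Pltp, Zfp982 and Hoxc9 the control lay nearer to S100a9 than to S100a8.

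Defb1, an epithelial defensin, was an exception, with 203, 106 and 196 (1.92-fold lower with S100a9), the S100a9 array standing alone. Akain1, an A-kinase anchor inhibitor, had 198, 109 and 111 (1.82-fold), or a log2 ratio of −0.51 with the mean of its probe sets. Wfdc18, a secreted WAP-domain protein, had 226, 125 and 174 (1.80-fold). Of the cell surface proteins in this group, Ccr2, the receptor for Ccl2, had 146, 81.3 and 97.8 (1.80-fold). Havcr1, the kidney injury molecule, had 173, 98.6 and 122 (1.75-fold), and Cldn3, a tight junction claudin, had 188, 108 and 134 (1.74-fold). Ankzf1, a factor of ribosome quality control, was the brightest of the 12 (722, 411 and 484; 1.76-fold). Its probe set can cross-hybridise by its ending, and its further probe set gave a log2 ratio of −0.02. The probe sets of Zfp982 and Cldn3 have the same ending. Of the 111 lower genes, 14 were above the floor with S100a8 and at it with S100a9. The 3 lowest of these were Col9a1, Gnao1 and Gh, and in each the control was also above the floor. Col9a1, a cartilage collagen, had 129, 72.2 and 81.4 (at least 1.70-fold lower). Gnao1, a neuronal G protein subunit, had 126, 73.4 and 92.4 (at least 1.65-fold). Gh, growth hormone, had 125, 67.0 and 116 (at least 1.65-fold). Just inside 1.5-fold were Itga9 and Mfap2 (both −0.59), and just outside Slc22a17 and Mro (both −0.58).

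Few of the 111 lower genes could be read on another probe set. Of them, 12 had a further probe set above the floor on both arrays, and of these 7 went the same way, with medians of −0.71 for the brightest and −0.02 for the further probe set. Over all 4786 genes with a further probe set, 56.6% went the same way. Genes are not independent replicates. Across them, Pearson's r was 0.15 and Spearman's rho 0.15. Of the 25 highest ratios with a further probe set 20 went the same way (medians 0.42 and 0.19), and of the 25 lowest 13 did (−0.58 and −0.02). Probe sets whose ending marks possible cross-hybridisation (_x_at) stood for 479 compared genes, of which 12 were 1.5-fold lower (2.51%), against 81 of 8335 genes with a plain ending (0.972%). Just 4 lower genes lay in the brightest band, named after their values were seen. Pik3cd, the leukocyte-type catalytic subunit of PI3-kinase, had 3773, 2328 and 3835 (−0.70) and no further probe set above the floor. Sh3bgrl was at −0.78, Grsf1, a mitochondrial RNA-binding protein, at −0.72 and Scpep1, a serine carboxypeptidase, at −0.64. Their further probe sets gave 0.00, 0.05 and 0.10.

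**Figure D4:**
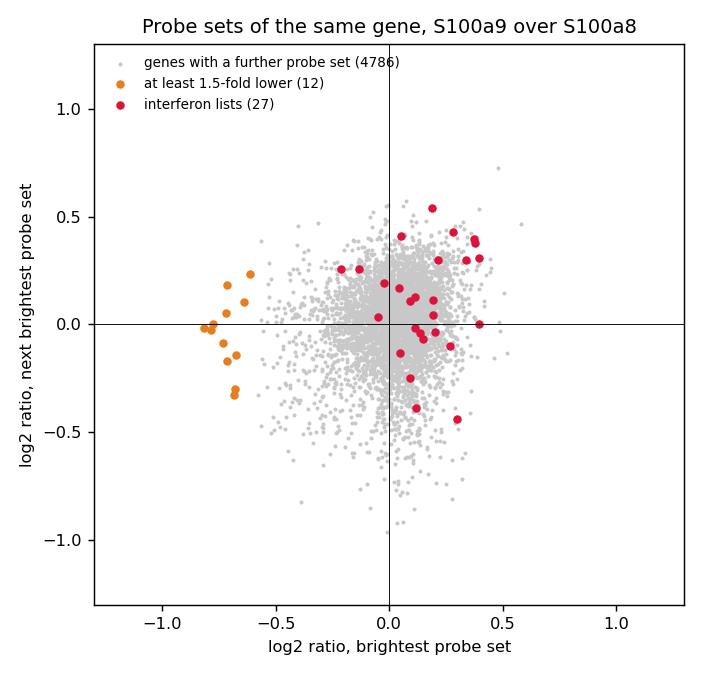
Log2 ratio of S100a9 over S100a8 for the brightest (horizontal axis) and the next brightest probe set (vertical axis) of 4786 genes. The 12 genes at least 1.5-fold lower spread around 0 on the vertical axis (median −0.02), and 18 of 27 interferon-list genes lie above 0 on it.

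Housekeeping and growth programmes had medians near 0. Genes of E2F and DNA replication (18 of 30 above 0), G2/M and mitosis (15 of 28), complex I (10 of 17) and complexes II to V (18 of 27) had medians of 0.02, 0.01, 0.01 and 0.02. Proteasome (12 of 31), ribosomal protein (10 of 23) and ATF4 target genes (11 of 23) each had a median of −0.01, and NRF2 genes (12 of 24) one of 0.00. None of these genes reached 1.3-fold in either direction, where 0.962% of all compared genes were higher and 5.55% lower. Just 1 E2F and DNA replication gene and 2 NRF2 genes lay in the dimmest band, and the other lists had 0 there. Ratios of bright genes spread less in general, with an SD of 0.11 in the brightest band against 0.25 in the dimmest. The p53 targets (14 of 18 above 0, median 0.08) and the chaperones of the endoplasmic reticulum (17 of 22, median 0.06) lay slightly higher, also with none at 1.3-fold.

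Markers of cell types were read against the label of a colon carcinoma line. Of 15 epithelial markers, 5 were above the floor on each array and 10 below it on all 3, among them the defining genes Cdh1, Krt8, Krt19 and Vil1. Krt18, a simple epithelial keratin, had 1032, 1236 and 1447 (0.26), and Epcam was dim (113, 85.5 and 101; −0.40). The summed epithelial signal was 2138, 2198 and 2428. Of 11 fibroblast markers 6 were above the floor on each array, and the summed signal was 10942, 11979 and 12168. Col1a2 alone had 7385, 7839 and 7467. Lum, Fap, Thy1, Postn and Acta2 were below the floor on all 3 arrays. Of the 6 compared fibroblast markers 5 had ratios above 0. Dcn (0.63) was highest, and Pdgfra had a ratio of 0.52 with a further probe set at −0.13. The lowest were Col1a1 (−0.03) and Col1a2 (0.09, with a further probe set at −0.06). In bulk RNA, fewer cells of a type and less RNA per cell cannot be told apart. Of 14 macrophage and granulocyte markers 8, 7 and 7 were above the floor (summed signal 2788, 2961 and 2686). The defining genes Ptprc, Itgam, Adgre1 and Tyrobp were below it on each array. Of the 8 compared markers 3 had ratios above 0 and 5 below, with a median of −0.15. Cd14 (1075, 1418 and 1413) held a large part of the sum and had the highest ratio, 0.40. Mpo had the lowest, −0.54. Lymphoid markers (3 of 8 above the floor) had a summed signal of 1197, 993 and 1047, with Cd3e at −0.31 and Cd4 at −0.35, while Cd3d, Cd79a and Ms4a1 were below the floor. Endothelial markers (3 of 8) had 493, 439 and 420, with Pecam1 and Cdh5 below the floor. The part of other cells in any result was not tested.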

How the data were processed

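Total RNA of CT26.WT cells was measured on 3 arrays (S100a8, S100a9 and control, 1 each). The deposited intensities are on a linear scale and come from MAS5, per the submitters' processing notes; its scaling target is not given in the sources used here, and the table holds no detection calls. MAS5 corrects each probe for its mismatch partner, so dim values carry more noise, and a common scale cannot show a change in RNA content per cell. The median signal was 78.7, 73.8 and 76.3. The arrays' number limits the precision.

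Of 45101 probe sets, 64 controls were left out, 34945 had 1 gene symbol in the platform annotation, 932 had several and 9160 were not listed; 34741 matched a RefSeq table (GRCm38.p6) by Entrez number and 0 symbols changed. Here, values under the floor (50th percentile of both arrays) were set to it, log2 was taken, and the log2 ratio of S100a9 over S100a8 was computed from the deposited signals with pandas 2.3.3 and numpy 2.4.6. The ratio step was tested on simulated data.

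The members and lists were chosen with earlier results of these data known, and the lists' names are no independent support. Named genes were the 12 highest and 12 lowest ratios with both arrays over the floor, passing over clone names and genes whose further probe set went the other way. The rule added 3 per direction with 1 array at the floor, the 2 highest and 2 lowest of each described list, and 12 genes in any case, among them S100a8, S100a9, Tlr4, Ccl2 and Oas1e. Alternatives were other centring, normalization, floors, filters, probe set rules and fold sizes.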

Additional observations from a re-analysis of the deposited data

How the results depend on the processing

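The genes at least 1.5-fold higher and lower with S100a9 numbered 11 and 111. They numbered 30 and 68 with centring by brightness, which shared 10 and 57 genes with the main counts. They numbered 20 and 246 with a floor at the 30th percentile, 5 and 26 at the 65th, and 2 and 15 with only genes above the 75th percentile. With a 2-fold size the counts were 0 and 2, and with a 1.3-fold size, added after the data were seen, 108 and 623. The lower count was 45 with the mean of all probe sets. Under the other alternatives (median centring, quantile normalization, no floor, a floor from all 3 arrays, no filter on dim genes, probe sets without _x_at or _s_at first, and, for higher genes, the mean of all probe sets) the counts were within 1.5 times the main ones. A stricter floor or size counts fewer genes by construction; otherwise the cause was not tested. The median of the NF-kB lists was 0.076 with no filter on dim genes, which adds genes whose ratio is set to 0 at the floor. The interferon and cholesterol synthesis medians stayed above 0 under all 11 alternatives. Ankzf1 was at −0.02 when probe sets without _x_at or _s_at were taken first. No paired analysis was possible because each group held 1 array, and for the same reason no replicate could be left out. Differences near the floor of 76.1, and any effect of culture or array, cannot be told apart from the treatment with these data.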

Other observations

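Developmental signalling genes gave a mixed picture. Axin2, a negative-feedback target of Wnt signalling, had signals of 167, 113 and 115 (S100a8, S100a9 and control), a log2 ratio of −0.56. The 11 compared Wnt genes had a median of −0.03 with 5 above 0. Among 10 Notch genes (4 above 0, median −0.08), Hes1, a repressor induced by Notch, had 137, 183 and 363 (0.42), and Hey1, a related repressor, had 169, 126 and 140 (−0.43). Both are Notch targets, and they lay on opposite sides of 0. Per3, a clock gene, was at 0.43 (272, 365 and 398), or 0.12 with the mean of its probe sets, among 13 clock genes with a median of 0.02. Klf9, a factor of the serum withdrawal list, was at 0.35 (2519, 3213 and 3950), or 0.18 with the mean of its probe sets. That list had 9 of 13 genes above 0 and a median of 0.16, or −0.02 with the mean of all probe sets.

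Of 10092 probe sets without a single gene symbol here, 2960 were compared. On these, 4 were at least 1.5-fold higher (0.135%) and 63 at least 1.5-fold lower (2.13%), with a median log2 ratio of −0.03. The lowest, 1427585_at, had 471, 116 and 40.9 (S100a8, S100a9 and control), 4.06-fold lower with S100a9. The highest, 1423555_a_at, had 238, 445 and 507, 1.87-fold higher. The next highest, 1440954_at, had 77.0, 125 and 186 (1.63-fold). These probe sets are unnamed in the annotation used and rest on 1 probe set each.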
